A study of Mus musculus with 44 samples.

Results

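Open gene ends in neurons of the paraventricular thalamic nucleus (PVT) were described from ATAC-seq, which counts transposase insertions in accessible chromatin as peaks. A gene-end peak was an autosomal ATAC peak no more than 1000 bp from the first or last base of a protein-coding gene, on mm10 and the RefSeq gene table of the same assembly (GRCm38.p6). There were 13743 such peaks among 87593 autosomal peaks, or 15.7%, and among 89792 peaks in the whole table. They lay at the ends of 12475 of 20665 autosomal protein-coding genes, or 60.4%. The choice used position only, and no measured value.

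The study characterised PVT neurons of a mouse model of bipolar disorder. The 4 ATAC libraries came from adult mice, 2 wild type (WT) and 2 carrying Polg(D181A), a form of the catalytic subunit of the mitochondrial DNA polymerase. Nuclei of all 4 were sorted on NeuN, a protein of neuronal nuclei, before the assay. H3K27ac, a histone acetylation found at promoters and enhancers in use, was profiled in 2 WT and 2 Polg(D181A) libraries of the PVT. H3K27ac tables of cortex (COR), nucleus accumbens (NAC) and caudate putamen (CP) were used for overlap. The strain field reads C57BL/6 for the PVT H3K27ac libraries. It reads C57BL/7 and C57BL/8 for WT replicates 1 and 2 of ATAC, and C57BL/9 and C57BL/10 for Polg(D181A) replicates 1 and 2, so in ATAC no strain entry occurs in more than 1 library. These numbers run on from C57BL/6 by 1 per library, so whether they name separate strains is not known. In this model, as known from its literature and not from the labels, the mutant polymerase is a transgene expressed from the Camk2a promoter beside the animal's own Polg. Whether libraries of 1 genotype are separate animals is not stated in the labels, so every p-value rests on the spread between these libraries, which may be technical.

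A gene's start holds its core promoter, where general transcription factors and RNA polymerase assemble, and at many genes it is kept free of nucleosomes. Most mammalian promoters of genes used in every cell lie in CpG islands, stretches rich in the CG dinucleotide, and carry sites for factors such as SP1, NRF1, ETS proteins and the CCAAT-binding factor NFY. Promoters of genes restricted to one tissue are often poor in CpG and closed elsewhere. The PVT is a midline thalamic nucleus of glutamatergic neurons that use the vesicular transporter Slc17a6 and hold few local GABA neurons in the mouse.

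ATAC totals over all peaks ran from 2932270 to 8040451 counts per library. A small group of 21 autosomal peaks above 1000 CPM (counts per 1000000), none of them at a gene end, took 14.8% and 29.6% of counts in the WT libraries and 29.9% and 16.0% in the Polg(D181A) libraries. CPM used TMM-adjusted library sizes, TMM being edgeR's scaling by the trimmed mean of log ratios, and CPM per kb divides by peak width. The defining gene of the sort, Rbfox3, which encodes NeuN, had a gene-end peak, as did all 12 listed neuron markers. Of listed non-neuronal markers, 6 of 10 for astrocytes, 3 of 10 for oligodendrocytes, 2 of 11 for microglia and 5 of 10 for endothelial and mural cells had one.

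The promoter sequences below illustrate strong, marker and closed gene ends. Each is the RefSeq window from 250 bases before to 50 bases after an annotated start (GRCm38.p6), 300 bases written 5′ to 3′ along the gene. Capitals mark the NFY word CCAAT on either strand, so ATTGG is also in capitals. The first 5 meet 5 of the 7 peaks of highest CPM at known starts, and Leprot, Mon1b, Ddx54, Sp1 and G3bp1 encode a leptin receptor overlapping transcript protein, a vesicle fusion factor, an RNA helicase, the GC-box factor SP1 and a stress granule protein. Syt1 (synaptotagmin, the calcium sensor of vesicle release) and Gbx2 (a thalamic homeobox factor) stand for neuron and thalamus markers. Hoxd13 was one of 3 Hox genes with an open end. Olfr1 and Vmn1r113 come from the least open gene families, had no ATAC peak in the window, and hold the median CpG number of their family.
Leprot: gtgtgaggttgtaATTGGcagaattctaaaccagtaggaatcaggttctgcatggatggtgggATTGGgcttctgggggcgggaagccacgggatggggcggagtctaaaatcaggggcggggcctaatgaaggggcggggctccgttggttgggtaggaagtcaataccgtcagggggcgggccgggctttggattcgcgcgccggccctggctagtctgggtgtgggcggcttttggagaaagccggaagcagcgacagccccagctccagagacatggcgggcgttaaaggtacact
Mon1b: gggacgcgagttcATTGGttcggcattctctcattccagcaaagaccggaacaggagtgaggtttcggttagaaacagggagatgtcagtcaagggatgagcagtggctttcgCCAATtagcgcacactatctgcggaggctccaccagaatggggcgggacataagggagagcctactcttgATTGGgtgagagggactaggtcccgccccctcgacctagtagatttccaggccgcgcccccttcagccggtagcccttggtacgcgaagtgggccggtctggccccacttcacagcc
Ddx54: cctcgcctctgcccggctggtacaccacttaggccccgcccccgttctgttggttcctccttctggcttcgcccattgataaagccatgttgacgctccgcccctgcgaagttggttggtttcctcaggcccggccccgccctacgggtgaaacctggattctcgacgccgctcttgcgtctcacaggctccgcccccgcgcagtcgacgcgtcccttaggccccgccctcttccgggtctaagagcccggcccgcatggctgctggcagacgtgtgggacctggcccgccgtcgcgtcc
Sp1: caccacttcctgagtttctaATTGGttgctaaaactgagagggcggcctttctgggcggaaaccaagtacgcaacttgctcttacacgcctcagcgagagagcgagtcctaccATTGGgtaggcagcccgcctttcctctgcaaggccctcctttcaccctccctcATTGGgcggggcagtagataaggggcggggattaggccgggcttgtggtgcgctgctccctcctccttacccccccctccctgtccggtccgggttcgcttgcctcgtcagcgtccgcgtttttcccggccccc
G3bp1: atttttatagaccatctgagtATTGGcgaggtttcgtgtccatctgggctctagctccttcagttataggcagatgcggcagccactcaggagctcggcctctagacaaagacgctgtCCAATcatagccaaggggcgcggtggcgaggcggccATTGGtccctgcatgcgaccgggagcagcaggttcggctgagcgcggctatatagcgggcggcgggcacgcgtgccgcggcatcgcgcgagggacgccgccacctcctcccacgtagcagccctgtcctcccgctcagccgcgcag
Syt1: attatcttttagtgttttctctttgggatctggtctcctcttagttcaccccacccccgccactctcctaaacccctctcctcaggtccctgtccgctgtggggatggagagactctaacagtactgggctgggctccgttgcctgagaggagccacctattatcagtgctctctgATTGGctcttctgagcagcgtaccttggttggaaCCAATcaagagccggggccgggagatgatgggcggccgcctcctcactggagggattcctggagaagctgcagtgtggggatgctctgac
Gbx2: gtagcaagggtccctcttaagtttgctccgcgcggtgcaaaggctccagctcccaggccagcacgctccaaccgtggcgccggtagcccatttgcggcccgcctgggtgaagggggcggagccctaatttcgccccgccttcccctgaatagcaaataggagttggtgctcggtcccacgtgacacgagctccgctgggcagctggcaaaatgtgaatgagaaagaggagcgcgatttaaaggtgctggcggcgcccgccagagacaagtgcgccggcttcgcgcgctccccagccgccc
Hoxd13: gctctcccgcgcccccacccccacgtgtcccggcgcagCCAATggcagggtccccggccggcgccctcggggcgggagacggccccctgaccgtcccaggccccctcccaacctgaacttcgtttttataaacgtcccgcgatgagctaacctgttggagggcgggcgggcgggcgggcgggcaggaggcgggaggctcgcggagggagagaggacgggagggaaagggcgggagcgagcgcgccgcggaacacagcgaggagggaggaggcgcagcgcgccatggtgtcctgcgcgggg
Olfr1: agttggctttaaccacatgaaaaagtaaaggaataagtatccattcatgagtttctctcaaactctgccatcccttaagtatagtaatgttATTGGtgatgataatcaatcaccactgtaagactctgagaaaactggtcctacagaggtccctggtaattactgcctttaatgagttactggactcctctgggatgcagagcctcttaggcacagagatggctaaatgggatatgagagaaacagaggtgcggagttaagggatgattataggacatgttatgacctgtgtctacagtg
Vmn1r113: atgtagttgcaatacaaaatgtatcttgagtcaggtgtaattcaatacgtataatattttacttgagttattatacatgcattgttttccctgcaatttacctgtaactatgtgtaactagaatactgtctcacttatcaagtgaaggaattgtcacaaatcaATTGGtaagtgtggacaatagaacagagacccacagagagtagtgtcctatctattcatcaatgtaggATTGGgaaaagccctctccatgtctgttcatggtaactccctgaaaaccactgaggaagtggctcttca

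The open windows shown are richer in CpG than the 2 receptor windows, and words with CCAAT occur in both kinds. The Leprot window at chr4:101647533-101647832 (plus strand) has 60.7% GC and 18 CpG, and that of Mon1b at chr8:113635336-113635635 (plus) has 58.7% GC and 17 CpG. Ddx54 at chr5:120612880-120613179 (plus) has 30 CpG and no CCAAT, Sp1 at chr15:102406066-102406365 (plus) has 19 CpG and 3 CCAAT words, and G3bp1 at chr11:55469502-55469801 (plus) has 30 CpG and 3. Syt1 at chr10:109010926-109011225 (minus) has 8 CpG and 2 CCAAT words, and Gbx2 at chr1:89931127-89931426 (minus) has 27 CpG and none. Hoxd13 at chr2:74667975-74668274 (plus) has 37 CpG and 1 CCAAT word. Its low peak, at chr2:74668239-74668785, begins 14 bp past the start and meets only the last part of this window. Olfr1 at chr11:73399446-73399745 (minus) and Vmn1r113 at chr7:20787035-20787334 (plus) have 1 CpG each, with 41.3% and 37.0% GC.

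Gene-end peaks were about 3 times as high as peaks elsewhere on the autosomes, in every library. Their mean CPM over the 4 libraries had a median of 15.3, against 5.03 for the other 73850 peaks. In WT replicates 1 and 2 the gene-end median was 15.4 and 15.2 CPM, and in Polg(D181A) replicates 1 and 2 it was 14.7 and 14.98 CPM. The median elsewhere lay between 5.12 and 5.21 CPM in the 4 libraries, so the ratio of medians was 3.0, 2.93, 2.85 and 2.87. The gene-end medians of the 4 libraries lay closer to each other than to any median of the other peaks. Per kb the medians were 38.9 and 13.9, a ratio that allows for peak width, whose medians were 350 and 329 bp.

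The distribution was broad. From the 5th to the 95th percentile, gene-end peaks ran from 3.26 to 46.7 CPM, from the lowest at 1.14 (the far end of Kcnj3, a potassium channel) to the highest at 183 (the far end of Lars2, the mitochondrial leucyl-tRNA synthetase). Of the gene-end peaks 5733, or 41.7%, were in the highest of 10 equal groups of autosomal peaks by CPM per kb, called level groups here, and 258, or 1.88%, were in the lowest. Gene ends thus made up 65.4% of that group. At 10 counts or more in all 4 libraries stood 12060 gene-end peaks, or 87.8%, against 52.8% of the other peaks. In the shallowest library, WT replicate 2, the median gene-end peak held 41 counts and the median other peak 14. The rank correlation between libraries ran from 0.85 to 0.90 over the 13743 gene-end peaks and from 0.44 to 0.68 over the others, a description in which depth differs between the sets. Peaks 950 to 1000 bp from an end had a median of 7.81 CPM (209 peaks), and those up to 50 bp beyond that limit, just outside the rule, 7.65 CPM (194 peaks).

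**Figure D1:**
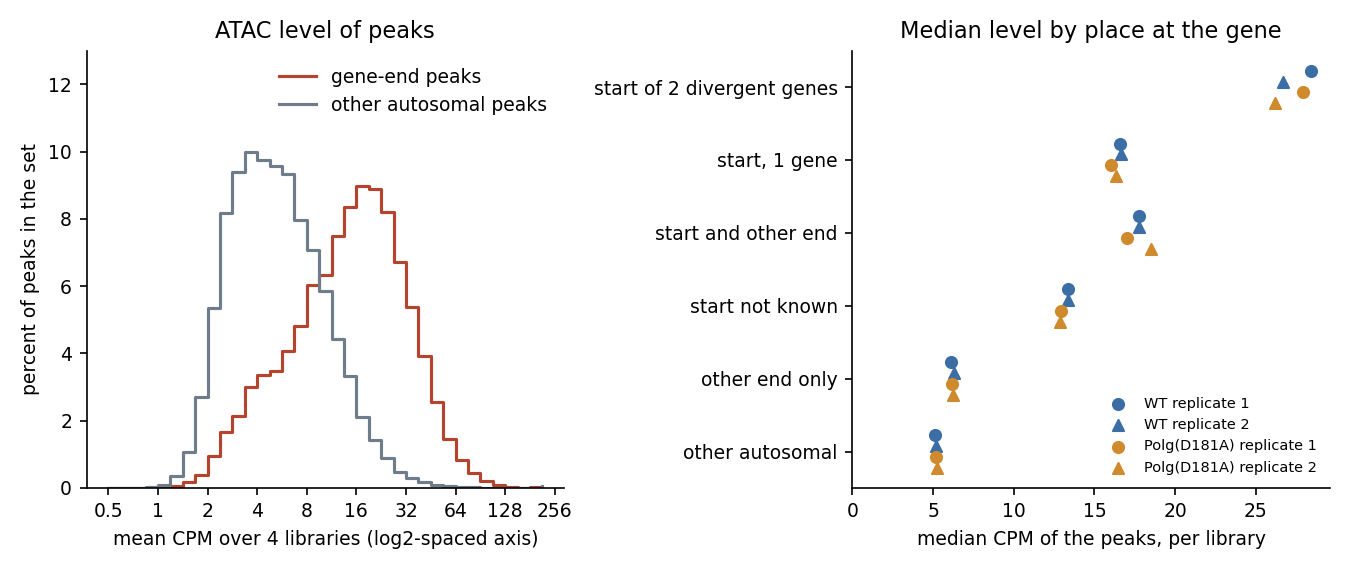
Left, the share of gene-end peaks and of other autosomal peaks (percent, y axis) in each step of mean CPM (x axis, log2-spaced), with the gene-end curve shifted to higher levels (medians 15.3 and 5.03 CPM). Right, the median CPM of peaks by place at the gene in each of the 4 libraries, from peaks at the start of 2 divergent genes at the top to other autosomal peaks at the bottom.

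Peaks at starts had a higher median level than peaks at far ends, although the highest single peak lay near the far end of Lars2. The promoter table gives a start, and so the strand, for 16457 of the 20665 genes. For these genes the start was taken as the outer end of the gene's span on that side. Of them, 9383, or 57.0%, were open at that start, 1867, or 11.3%, at the other end, and 1277, or 7.76%, at both. Peaks at annotated starts farther inside a span do not count here. Over all promoter windows, 1320, of 1106 genes, overlapped an ATAC peak more than 1000 bp from the outer gene ends, and the 57.0% leaves these out. The 8921 peaks at starts only had a median of 17.4 CPM, and the 1300 peaks at other ends only had 6.10 CPM. In WT replicates 1 and 2 and Polg(D181A) replicates 1 and 2, peaks at starts only had medians of 17.5, 17.4, 16.8 and 17.0 CPM. The same libraries gave 6.12, 6.30, 6.20 and 6.21 CPM for other ends, close to the 5.12 to 5.21 CPM of peaks more than 1000 bp from gene ends, a set that includes peaks inside genes. The 2694 peaks whose genes all lack a start in that table had a median of 13.3 CPM.

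Peaks shared by 2 divergent starts were higher still. Divergent genes are transcribed away from each other from one common promoter region. The 584 peaks of this kind had a median of 27.9 CPM and 69.6 CPM per kb, against 16.6 CPM and 41.7 CPM per kb for the 8016 peaks at the start of 1 gene. In every library the divergent median, between 26.2 and 28.4 CPM, lay above the single-start median, between 16.0 and 16.7 CPM. Among peaks assigned to their nearest start, the 6033 that covered the start base had a median of 20.9 CPM. The median was 14.5 CPM at 1 to 100 bp (837 peaks) and 10.2 CPM beyond 500 bp (1147 peaks). Most genes with an open end, 9620 of 12475, had 1 gene-end peak, 2529 had 2 and 326 had 3 or more. Of the peaks, 1882 lay near more than 1 gene, so genes can share a value.

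CpG number went with whether a start was open and, up to 20 to 24 CpG, also with the level of open starts. Over 20056 promoter windows of autosomal protein-coding genes, 8687 overlapped a gene-end peak, 1320 overlapped an ATAC peak more than 1000 bp from the outer gene ends, and 10049 overlapped none. Windows on a gene-end peak had a median of 23 CpG and 62.7% GC, against 4 CpG and 50.3% GC for windows without a peak. Of windows with 0 to 4 CpG, 3.55% carried a gene-end peak, and the share was 17.4% at 5 to 9 CpG, 50.03% at 10 to 14 CpG and 68.2% at 15 to 19 CpG. It stayed between 72.8% and 74.9% at 20 CpG or more. Among open windows the median level was 20.4 CPM per kb at 0 to 4 CpG, 37.6 at 5 to 9, 46.4 at 10 to 14 and 53.9 at 15 to 19. It was 60.6 at 20 to 24 CpG, 59.6 at 25 to 29 and 53.5 at 30 to 67 CpG.

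The word CCAAT was more frequent at open starts of higher level. Words were searched on both strands of the 300-base windows, and one window can hold several. CCAAT stood in 38.1% of all windows, in 36.1% of windows without an ATAC peak and in 40.8% of open windows. Across 10 equal level groups of open windows by CPM per kb, it stood in 32.8% of the lowest level group, 32.6% of the fifth, 50.5% of the eighth and 66.1% of the highest. Median GC over these level groups ran only from 60.3% to 63.3%. Open windows with CCAAT had a median of 64.4 CPM per kb and those without it 47.5. Matches were densest 51 to 75 bp before the start in each set of windows. There were 22.6 per 100 windows in the highest level group, 11.1 in open windows and 6.03 in windows with no peak. A match within 50 to 110 bp before the start was found in 39.2% of the highest level group, 19.3% of open windows and 12.6% of windows without a peak. Of all matches in the same sets, 33.5%, 34.0% and 29.0% lay there, so the sets differed more in number of words than in place.

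Other words showed other patterns. GGGCGG, part of the SP/KLF site, stood in 47.0% of all windows, 25.1% of windows without a peak and 70.6% of open windows. Among level groups of open windows it stood in 58.9% of the lowest and 79.4% of the highest. The ETS word CCGGAAG stood in 11.9% of all windows, 4.03% of those without a peak and 21.0% of open ones. By level group it stood in 7.71% of the lowest, 25.5% of the seventh and 20.8% of the highest. NRF1's GCGCATGC stood in 3.55% of all windows, 0.896% of those without a peak and 6.52% of open ones. YY1's AAGATGGCG stood in 1.83%, 0.318% and 3.59% of the same sets, and TCTCGCGA, the word bound by BANP, in 1.36%, 0.219% and 2.64%. The CRE word TGACGTCA stood in 2.30%, 0.916% and 3.87%, and the E-box CACGTG in 7.89%, 5.36% and 10.8%. TATAAA went the other way, with 12.7% of all windows, 19.6% of those without a peak and 5.65% of open ones, and so did the AP-1 word TGANTCA, with 7.06%, 10.2% and 3.58%. A match describes letters in the window and shows no binding, and most of these words contain CpG or are GC-rich, so they move with composition.

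**Figure D2:**
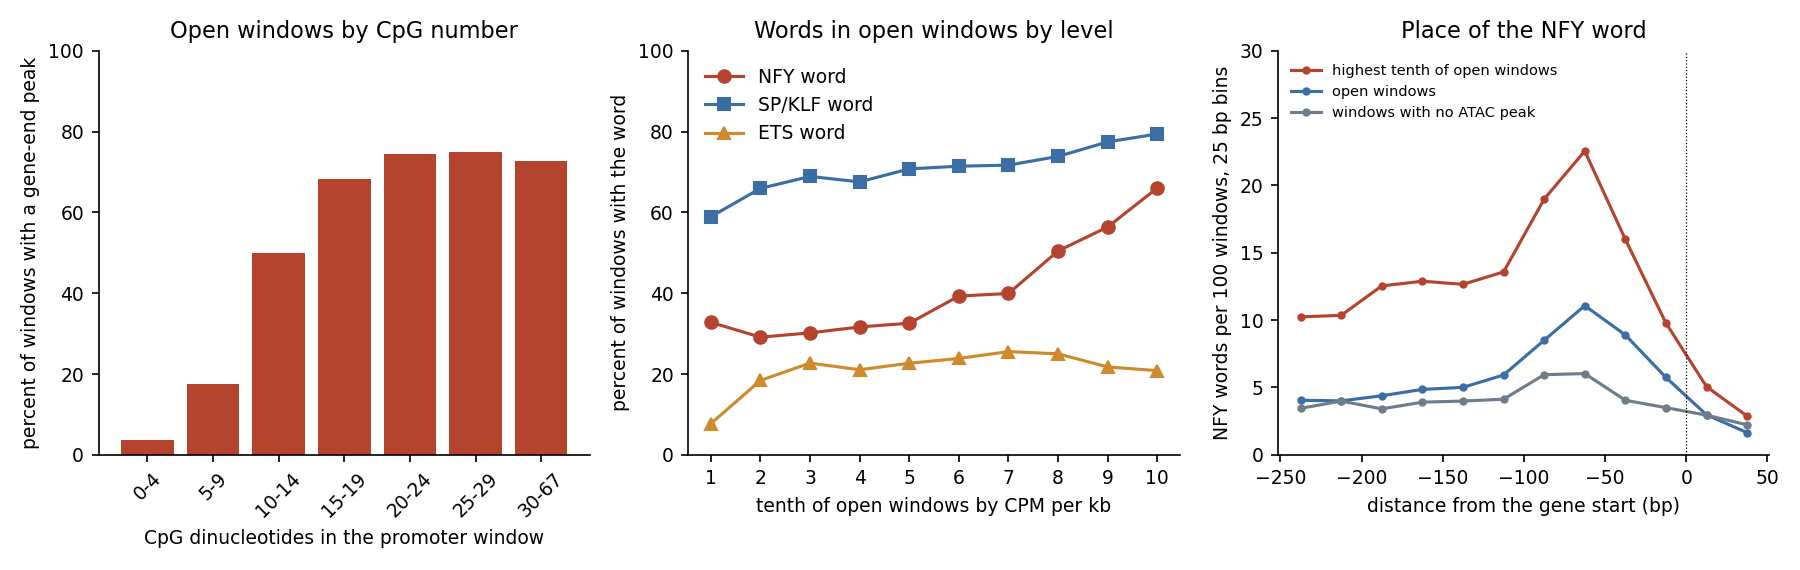
Left, the percent of promoter windows with a gene-end peak by number of CpG, which climbs from 3.55% at 0 to 4 CpG to a plateau above 20 CpG. Middle, the percent of open windows with the NFY, SP/KLF and ETS words (y axis) in each of 10 level groups (x axis, 10 is the highest), where NFY ends at 66.1%. Right, NFY words per 100 windows in 25 bp bins by distance from the start, for the highest level group, all open windows and windows with no peak.

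The highest gene-end peaks belonged to genes with varied roles, and most of them stood at starts. Lars2 led with 88.7 and 313 CPM in WT replicates 1 and 2 and with 101.5 and 230.1 CPM in Polg(D181A) replicates 1 and 2. That peak, at chr9:123461824-123462245, lay 430 bp from the far end of Lars2, and replicate 2 was the higher library in both genotypes. The peak at the start of Khsrp, an RNA-binding splicing regulator, at chr17:57031667-57032185, had 240 and 111 CPM in WT and 245 and 134 CPM in Polg(D181A). Leprot had 179 and 106 CPM in WT and 210 and 104 CPM in Polg(D181A). At Khsrp and Leprot replicate 1 was the higher library in both genotypes.

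Mon1b (139, 125, 185 and 103 CPM in WT 1, WT 2, Polg(D181A) 1 and 2), the divergent pair Ddx54 and Rita1 (160, 104, 133 and 119 CPM) and Sp1 (150, 101.5, 165 and 88.2 CPM) followed. Per kb, after Lars2 at 434, the leaders were Ddx54 and Rita1 at 383, Sp1 at 383, Khsrp at 352, the phosphatase gene Ppm1b at 345 and the pair Cdca2 and Kctd9 at 344 CPM per kb. G3bp1 (332 CPM per kb) and Dnpep, an aspartyl aminopeptidase (341 CPM per kb), were also among the 10 highest. Both replicate 1 libraries lay above both replicate 2 libraries at 88 of the 100 gene-end peaks of highest CPM, and below them at 1. Over all 13743 gene-end peaks the corresponding shares were 21.4% and 15.1%. The labels do not say what replicates of the same number share, and the cause was not tested.

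Classes of genes used in every cell were open almost throughout. Classes were name families or short lists, 44 in all, and each gene was given the level of its highest gene-end peak. Over all 20665 genes, 60.4% had an open end and the median was 18.9 CPM. Splicing factors had an open end at 47 of 48 genes (97.9%, exact 95% interval 88.9 to 99.9), RNA polymerase II and Mediator subunits at 39 of 41 (95.1%) and proteasome subunits at 36 of 38 (94.7%). E2 ubiquitin-conjugating enzymes followed at 32 of 34, mitochondrial ribosomal proteins at 72 of 78, cytosolic ribosomal proteins at 73 of 80 and nuclear oxidative phosphorylation subunits at 74 of 82. Intervals cover counting error only, genes of a family are not independent, and no test between classes was run.

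Examples show the levels within these classes. The splicing factor U2af2, which recognises the 3′ splice site, had 58.0 and 40.001 CPM in WT and 76.2 and 34.2 CPM in Polg(D181A). The Mediator subunit Med19, at a start shared with Tmx2, had 70.4, 55.9, 73.6 and 62.8 CPM in the same order. The proteasome ATPase Psmc6 had 61.6 and 36.3 CPM in WT and 44.4 and 41.4 CPM in Polg(D181A). The genotypes overlapped at U2af2 and Psmc6. The lowest proteasome gene was Psma6 at 2.16 CPM, and the immunoproteasome genes Psmb8 and Psmb9, which replace standard subunits in immune cells, had 6.80 and 6.17 CPM.

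By level the order changed. Replication-dependent histones, which package newly made DNA, had the highest median at 83.5 CPM per kb (32.4 CPM, 46 of 57 genes open), although these clustered genes share peaks, with 29 distinct ones tested for the 46. Chaperones had 78.7 CPM per kb (34.3 CPM, 68 of 80 genes), circadian clock genes 75.1 (27.8 CPM, 17 of 18 genes), immediate early genes 69.9 (26.0 CPM, 15 of 18 genes) and cytosolic ribosomal proteins 66.8 (26.4 CPM). All genes with an open end had a median of 47.6 CPM per kb. Among chaperones, Hspa8 of the constitutive HSP70 family had 68.6 CPM and Hsp90b1 of the endoplasmic reticulum 63.1 CPM. Among ribosomal proteins Rps29 (53.3 CPM) and Rpl22l1 (48.1 CPM) were highest per kb.

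Clock and immediate early genes respond to time of day and to activity, and many of their starts were among the higher ones. Nr1d2, a repressor of the clock loop, had 75.3 and 55.6 CPM in WT and 71.0 and 51.2 CPM in Polg(D181A). Per1 had a mean of 57.4 CPM, and Ciart, Cry1, Tef and Cry2 stood between 34.6 and 37.3 CPM. Jun, a subunit of AP-1, had 65.8, 57.0, 90.7 and 44.2 CPM, and Egr1, an activity-induced zinc finger factor, had 74.3, 65.2, 57.6 and 82.4 CPM in WT 1, WT 2, Polg(D181A) 1 and 2. Fos had a mean of 32.1 CPM and Arc of 26.0 CPM, while Nr4a2 had 4.36 CPM.

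Neuronal gene classes lay nearer to the average in share and below it in level. Synaptic vesicle and release genes were open at 21 of 27, glutamate receptors at 19 of 25, GABA receptors at 13 of 18, axon guidance genes at 43 of 59 and potassium channels at 58 of 92. Their medians were 17.8, 11.2, 14.4, 12.9 and 11.04 CPM, all under the 18.9 CPM of all genes. Within the synaptic list Vamp1 had 66.0 CPM and Napb 45.4 CPM, and Bsn, a scaffold of the active zone, had 7.96 CPM. Neuropeptide precursors were open at 12 of 25 genes, with Pomc highest at 19.2 CPM and Npy lowest at 2.96 CPM.

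Neuron and thalamus markers were nearly all open, and markers of GABA and cortical neurons mostly were not. The 12 neuron markers ran from 7.98 CPM at Rbfox1 to 36.3 CPM at Syt1. Syt1 had 39.1 and 38.9 CPM in WT and 42.9 and 24.3 CPM in Polg(D181A), with overlapping genotypes. Of 14 thalamus and PVT markers 13 were open, from 5.22 CPM at the Wnt effector Lef1 to 19.9 CPM at the calcium channel gene Cacna1g. Gbx2 had 14.9 and 13.7 CPM in WT and 6.46 and 18.2 CPM in Polg(D181A), and Calb2 (calretinin, a PVT marker) had 13.1, 18.5, 8.007 and 7.77 CPM in the same order. The vesicular transporter Slc17a6 had a gene-end peak at 11.6 CPM and its cortical counterpart Slc17a7 had none. Of 10 GABA neuron markers only the homeobox gene Dlx5 had a gene-end peak, at 6.93 CPM, and Gad1, Gad2 and Slc32a1 had none. Cortical projection neuron markers were open at 2 of 10 genes, Cux2 at 8.79 CPM and Emx1 at 2.63 CPM, and striatal ones at 6 of 10, up to 18.4 CPM at Pde10a.

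Glial and vascular markers were mostly closed or low. Astrocyte markers ran from 3.50 CPM at Sox9 to 18.1 CPM at Slc1a2, with no gene-end peak at Aqp4, Gja1, S100b or Aldh1l1. Among oligodendrocyte markers Mbp (17.4 CPM), Cnp (15.7 CPM) and Olig1 (9.72 CPM) had one, and Mog, Mag, Sox10 and Olig2 did not. Among the microglia markers C1qa, a complement subunit, was at 3.39 CPM, and Cx3cr1, P2ry12 and Tmem119 had no gene-end peak. The 5 open endothelial and mural markers all lay between 2.64 CPM (Cldn5) and 2.81 CPM (Flt1), the lowest median per kb of the 39 classes with at least 5 open genes, 8.37 CPM per kb.

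Several families of receptors and structural proteins used mainly in other tissues had few open ends, though collagens were open at 21 of 42 genes. Vomeronasal receptors were open at 6 of 352 genes (1.70%, exact 95% interval 0.628 to 3.67) and olfactory receptors at 26 of 1104 (2.36%, interval 1.54 to 3.43). Hox genes, which pattern the trunk and hindbrain, were open at 3 of 39, defensins at 8 of 71, serpins at 7 of 62, keratins at 13 of 109 and taste receptors at 5 of 38. The peak of the highest vomeronasal gene, Vmn1r4 (47.1, 28.5, 41.1 and 34.7 CPM), also lay at the start of Nt5c3, a nucleotidase gene. The next, Vmn2r29, had 10.9 and 13.3 CPM in WT and 14.98 and 11.8 CPM in Polg(D181A). Olfr94 led the olfactory receptors at 13.3 CPM, and their median was 3.04 CPM. The 3 open Hox genes were Hoxd13 at 5.003 CPM, Hoxa11 at 1.91 CPM and Hoxb8 at 1.89 CPM. Hoxa11 had 0 and 0.370 CPM in WT and 5.17 and 2.11 CPM in Polg(D181A), so its mean rests mostly on the latter. Hoxd13 had 4.996 and 6.67 CPM in WT and 3.36 and 4.99 CPM in Polg(D181A). Classes followed their CpG numbers only in part. Olfactory and vomeronasal windows had a median of 1 CpG, whereas the Hox windows in the promoter table, which covers 22 of the 39 genes, had 14.5.

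**Figure D3:**
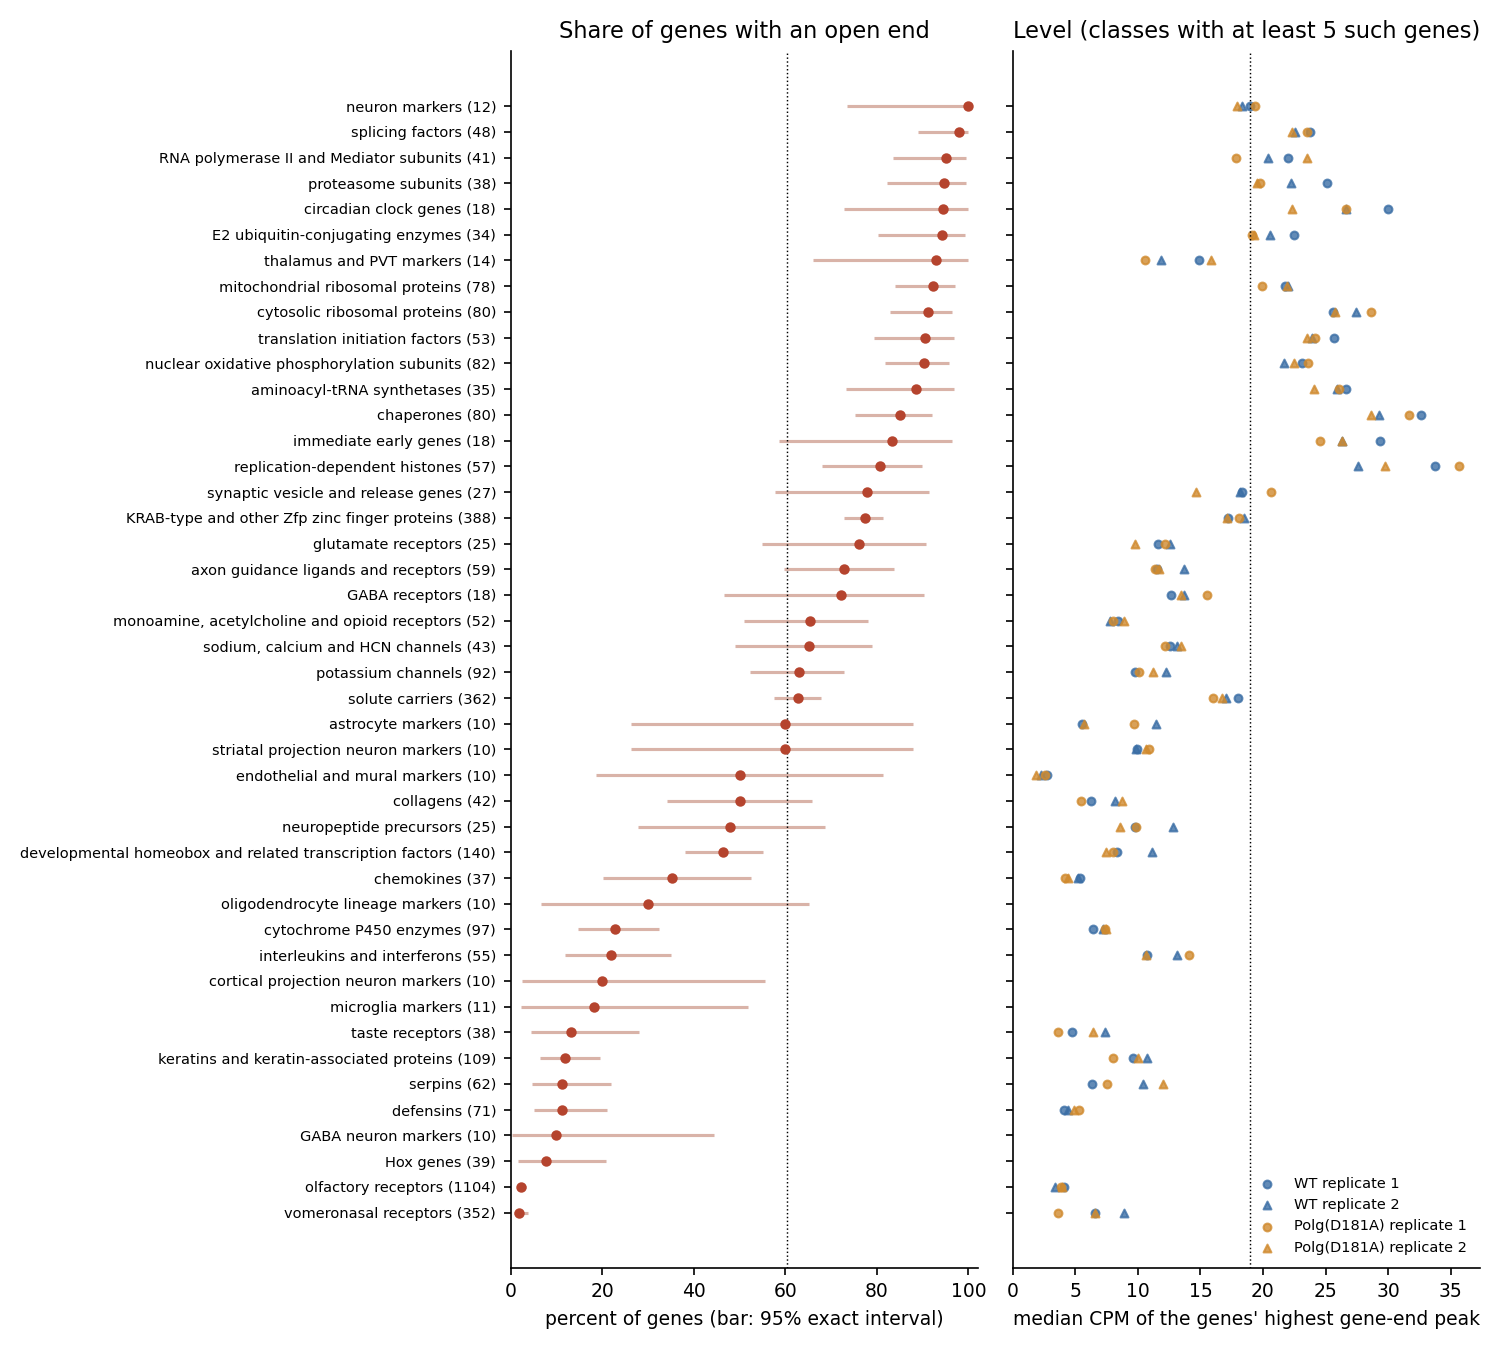
Left, the percent of genes in each of 44 classes with a gene-end peak (point, with its exact 95% binomial interval; class size in brackets), with a dotted line at the 60.4% of all genes. Right, the median CPM of the genes' highest gene-end peak in each of the 4 libraries, for classes with at least 5 open genes, with a dotted line at 18.9 CPM.

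Polg itself had no gene-end peak by the rule. Its span in the gene table, chr7:79446231-79467911, ends 1391 bp beyond the ATAC peak over the start given by the promoter table. That peak, at chr7:79466096-79466520, had 25.5 and 24.8 CPM in WT and 27.4 and 23.0 CPM in Polg(D181A), so the genotypes overlapped.

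Most gene-end peaks met a PVT H3K27ac peak. By at least 1 bp, 9034 of 13743 did (65.7%, exact 95% interval 64.9 to 66.5), against 28419 of 73850 other autosomal peaks (38.5%, interval 38.1 to 38.8). Neighbouring peaks are not independent, so the intervals are too narrow. Peaks at starts only met one in 69.1% of cases and peaks at other ends only in 39.4%, the latter close to the 38.5% of peaks beyond 1000 bp from gene ends. Gene-end peaks with H3K27ac had medians of 17.6, 17.4, 16.8 and 16.9 CPM in WT 1, WT 2, Polg(D181A) 1 and 2, and those without it 9.99, 10.7, 10.1 and 10.2 CPM.

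Much of that difference went with ATAC level. Autosomal peaks were cut into 10 equal groups by CPM per kb, and overlap was compared within each group. In the lowest level group 8.91% of 258 gene-end peaks and 9.56% of 8502 other peaks met H3K27ac, and in the highest level group 74.4% of 5733 and 73.6% of 3027 did. Between them gene ends were ahead, with 53.1% against 44.97% in the sixth level group, 61.9% against 53.1% in the seventh and 72.0% against 62.4% in the eighth. The intervals of the 2 sets lay apart in 5 groups, from the fifth to the ninth. At a matched level the gap was thus at most 9.6 percentage points, where the pooled gap was 27.3. Where both marks were present, the level of ATAC followed the level of H3K27ac only weakly, with a rank correlation of 0.16 over 9034 peaks, a description over peaks of the same libraries.

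Some of the most open gene ends had no PVT H3K27ac peak on them. Lars2, Leprot, Camk2a, Mon1b and the pair Ddx54 and Rita1 were the 5 highest without overlap, and Sp1 was next. In other regions, Camk2a and Mon1b met H3K27ac in COR, CP and NAC, and Leprot in CP and NAC. Ddx54 and Rita1 met it in COR and CP, Sp1 in COR and NAC, and Lars2 in none. A PVT H3K27ac peak ended or began 16 bp from the Ddx54 and Rita1 peak and 357 bp from the Leprot peak. The distance was 1978 bp for Sp1, 3239 bp for Camk2a, 3995 bp for Lars2 and 6417 bp for Mon1b. Of the 4709 gene-end peaks without overlap, 1246, or 26.5%, had a PVT H3K27ac peak within 1000 bp, and the median distance was 4582 bp. Among the 1470 of them in the highest level group, 436, or 29.7%, did. At the other extreme, the lowest gene-end peaks that met H3K27ac lay at Myocd, Cops2, 4931422A03Rik, Bend7 and Spatc1, all between 1.17 and 2.01 CPM.

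Classes differed in overlap as well. Taking each gene's highest peak, 16 of 17 open clock genes, 11 of 12 neuron markers, 29 of 32 E2 enzymes, 17 of 19 glutamate receptors and 12 of 13 GABA receptors met PVT H3K27ac, against 8535 of 12475 genes overall (68.4%). Immediate early genes did so at 8 of 15, with Egr1, Jun, Homer1 and Arc among them and Fos, Fosb, Junb and Egr3 not. None of the 5 endothelial and mural markers, none of the 3 Hox genes and 6 of 26 olfactory receptors did. Among thalamus and PVT markers 8 of 13 did, Calb2 and Cacna1g among them, while Gbx2, Foxp2, Slc17a6, Drd2 and Tcf7l2 did not.

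Seen from the other assay, 12935 PVT H3K27ac peaks lay within 1000 bp of a gene end, and 8695 of them, or 67.2%, held an ATAC peak, against 21.0% of the 108570 elsewhere. Those at gene ends with an ATAC peak had a median width of 1842 bp and those without one 450 bp. H3K27ac of other regions met PVT gene ends less often, at 57.0% for COR, 58.6% for NAC and 35.4% for CP. These tables covered 140, 117 and 68.9 Mb of the autosomes, against 134 Mb for the PVT, so covered length and region cannot be told apart for CP. Other autosomal peaks met them at 24.9%, 23.1% and 14.9%. Gene-end peaks with H3K27ac in all 4 regions numbered 2420 (17.6%, median 19.0 CPM), in the PVT alone 1162 (8.46%, 10.5 CPM) and in none 1880 (13.7%, 5.36 CPM). Among other peaks 3.98% were marked in all 4 regions and 16.8% in the PVT alone.

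**Figure D4:**
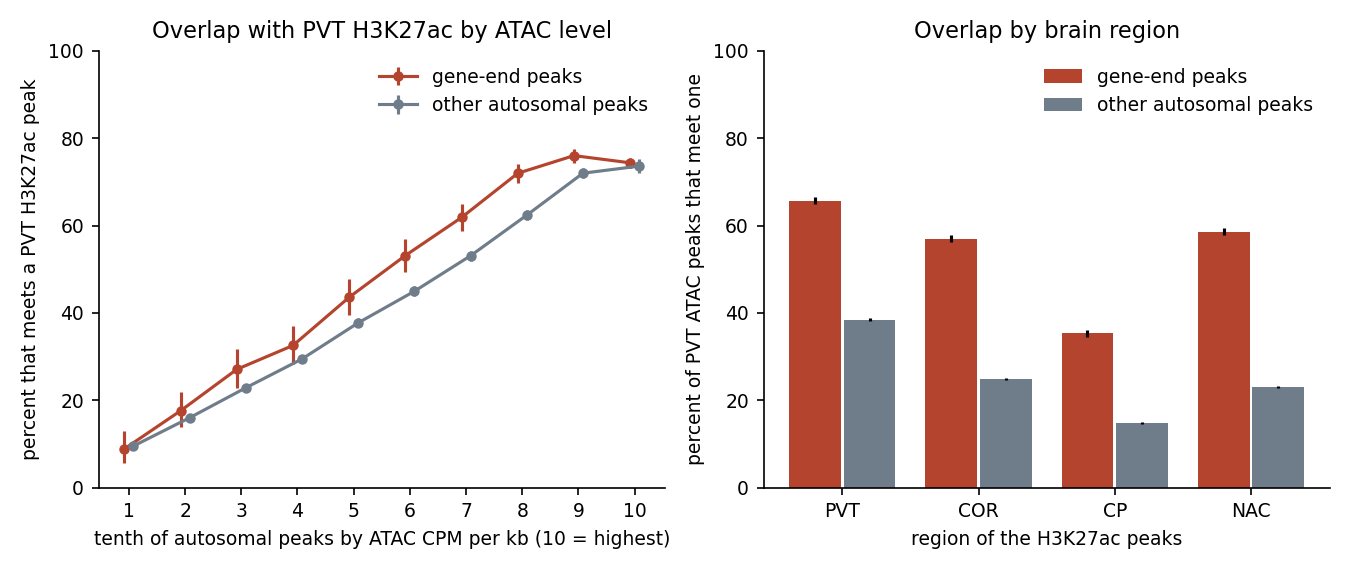
Left, the percent of gene-end and of other autosomal ATAC peaks that meet a PVT H3K27ac peak (y axis, with exact 95% binomial intervals) in each of 10 ATAC level groups (x axis), where both sets climb from about the same share in the lowest level group to about the same share in the highest. Right, the percent that meet an H3K27ac peak of each region, higher for gene-end peaks in PVT, COR, CP and NAC.

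No gene-end peak differed between Polg(D181A) and WT at an adjusted p under 0.05 in fits without a replicate block. With edgeR's quasi-likelihood test and Benjamini-Hochberg adjustment over all 87600 tested peaks, 0 of 13683 tested gene-end peaks were called, and 1 peak in the table, or 0.00114%, was. DESeq2 called 0 gene-end peaks and 3 peaks in all (0.00334%). At an unadjusted p under 0.05 stood 407 gene-end peaks, 226 of them lower in Polg(D181A), or 2.97%, against 6.13% of all tested peaks. The median log2 change was -0.02 over gene ends and -0.0024 over all tested peaks. With 2 libraries per genotype and a common biological coefficient of variation of 0.442, only large changes can pass, so smaller differences were not detectable at this depth.

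The spread of the changes depended on level. In the lowest of 10 equal groups of tested gene ends by CPM (1.38 to 4.46 CPM) the log2 change ran from -2.10 to 2.50 between the 5th and 95th percentiles, and in the highest level group (37.4 to 183 CPM) from -0.38 to 0.36. Both Polg(D181A) libraries lay above both WT libraries at 2026 gene-end peaks (14.8%, against 20% of all tested peaks) and below them at 2495 (18.2%, against 20.8%).

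Camk2a combined a very high level with a large difference. Camk2a encodes the alpha subunit of a calcium/calmodulin-dependent kinase of excitatory neurons. Its peak at chr18:60925161-60925692, over an end of the gene, had 95.1 and 62.2 CPM in WT and 207 and 213 CPM in Polg(D181A). Both Polg(D181A) libraries were higher and the genotypes did not overlap. The log2 change was 1.41 ± 0.36 (SE), outside the -0.38 to 0.36 of its level, with an edgeR adjusted p of 0.70 and a DESeq2 adjusted p of 0.12. With the replicate number as a block it passed the edgeR test, with a log2 change of 1.44 and an adjusted p of 0.00101. That fit called 2 of 87600 tested peaks (0.00228%), and Camk2a was the only gene end among them. The Camk2a peak met no H3K27ac peak of the PVT. Whether the transgene, which carries a Camk2a promoter, takes part in this value was not tested.

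The other gene ends of smallest p were low. At the start of Pdyn, the precursor of dynorphin, the WT libraries had 4.62 and 13.7 CPM and the Polg(D181A) libraries 0.517 and 0.777 CPM, a log2 change of -3.69 ± 0.90 (SE; edgeR adjusted p = 0.70). The Pdyn change was -2.76 without WT replicate 2 and -4.32 without WT replicate 1. At Cbln1, a synapse organiser, the libraries had 6.25 and 8.15 CPM in WT and 0.258 and 0.444 CPM in Polg(D181A), a log2 change of -4.19 ± 1.04 (SE; edgeR adjusted p = 0.70). Near the far end of Dnmt1, the maintenance DNA methyltransferase, both WT libraries had 0 counts and the Polg(D181A) libraries 6.97 and 4.33 CPM, at least 18.3-fold higher taking 3 counts over the WT group as the floor. At Olfr96 WT had 3.75 and 4.81 CPM and both Polg(D181A) libraries 0, at least 17.2-fold lower by the same floor. Such bounds leave out the spread between libraries. The genotypes did not overlap at any of these low peaks, and none passed the test. They and Camk2a were picked by small p in these same libraries, so the separation follows from the choice. Over all tested gene-end peaks, both Polg(D181A) libraries were above both WT libraries at 14.8% and below them at 18.2%.

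Clock genes lay mostly on one side. They were picked out of 39 classes with at least 5 open genes, after the values were seen. Of the 17 with a tested gene-end peak, 16 had a log2 change below 0, with a median of -0.31, and 0 passed the test. Over the 11013 distinct highest peaks of all genes, 5768, or 52.4%, were below 0, with a median of -0.02. Class medians ran from -0.41 (astrocyte markers, 6 peaks) to 0.75 (defensins, 7 peaks). Larger classes leaned as well, with 16 of 47 splicing factors and 14 of 21 synaptic vesicle and release genes above 0. Per1 had 75.6 and 61.9 CPM in WT and 42.6 and 49.7 CPM in Polg(D181A), and Cry1 had 45.2 and 41.9 against 32.0 and 27.2 CPM. Both genes repress the clock's activators. Both Polg(D181A) libraries were below both WT libraries at these 2 and at 8 of the 17 in all, a pattern shown by 18.2% of tested gene-end peaks and 20.8% of all tested peaks. The log2 changes were -0.57 ± 0.31 and -0.56 ± 0.31 (SE; edgeR adjusted p = 0.80 for both). Per3 was at 28.2, 19.6, 29.96 and 20.9 CPM. Leaving out WT replicate 1 gave 13 below 0 and a median of -0.17. No hour of tissue collection was used here, and its part in these values was not tested.

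The share of counts in gene-end peaks did not separate the genotypes. It was 29.0% and 23.0% in WT and 23.9% and 27.5% in Polg(D181A), with means of 26.0% ± 4.25 and 25.7% ± 2.55 (SD, n = 2 each). The difference was -0.305 percentage points, with p = 1.0 by a 2-sided exact permutation test whose smallest possible p over 6 assignments is 0.333. The libraries with the low shares, WT replicate 2 and Polg(D181A) replicate 1, were those with 29.6% and 29.9% of counts in the 21 peaks above 1000 CPM. Without those peaks the shares were 34.0%, 32.6%, 34.0% and 32.7%.

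**Figure D5:**
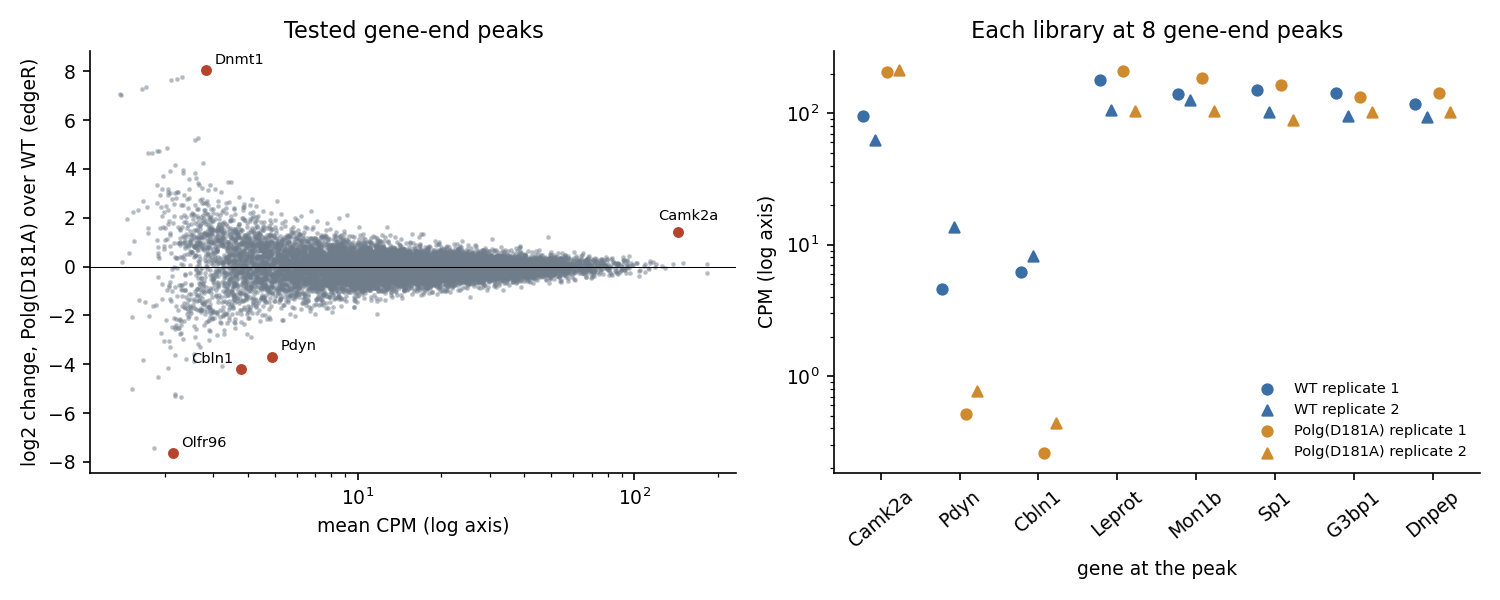
Left, the log2 change in Polg(D181A) over WT against mean CPM (log axis) for the tested gene-end peaks, with the 5 of smallest p in red and Camk2a apart at high CPM. Right, the CPM of each of the 4 libraries (log axis) at those of them detected in all libraries and at 5 of the highest peaks, where replicate 1 exceeds replicate 2 in both genotypes.

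H3K27ac at open gene ends gave no call by the same test. Of 7962 tested PVT H3K27ac peaks over a gene-end ATAC peak, edgeR called 0, as it called 0% of all 121536. The common biological coefficient of variation was 1.06, above the 0.442 of ATAC, so only very large changes could pass this test. At an unadjusted p under 0.05 stood 352 of them, or 4.42%, 205 higher and 147 lower in Polg(D181A), against 8.09% of all tested peaks. DESeq2 called 437 of 7969, 279 higher and 158 lower, or 5.48%, against 10.7% of all its 123818 peaks, so the 2 tools disagree and the share at gene ends was below the background in both. Both Polg(D181A) libraries lay above both WT libraries at 1597 of the 7962 (20.1%, against 22.6% of all) and below them at 1375 (17.3%, against 24.1%).

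The 5 H3K27ac peaks of smallest p at open gene ends included both directions. At Gnao1, a G protein alpha subunit of neurons, the peak at chr8:93967601-93970276 had 20.2 and 16.7 CPM in WT and 3.92 and 2.34 CPM in Polg(D181A). At Gpr83, a G protein-coupled receptor gene, WT had 2.83 and 3.66 CPM and Polg(D181A) 24.5 and 14.1 CPM. At the pair Qrsl1 and Rtn4ip1, both mitochondrial proteins, WT had 7.46 and 8.11 CPM and Polg(D181A) 25.8 and 23.1 CPM. A broad peak at Inpp5j and Selenom had 109 and 112 CPM in WT and 55.9 and 62.3 CPM in Polg(D181A). At Cdca8, a mitotic gene, WT had 2.68 and 10.3 CPM and both Polg(D181A) libraries 0 counts. With 3 counts over the group as the floor, this is at least 243-fold lower. That bound leaves out the spread between libraries. The genotypes did not overlap at any of the 5, and the edgeR adjusted p was 0.56 for each. These were picked by small p in the same libraries, so the separation follows from the choice. Among all tested PVT peaks, both Polg(D181A) libraries were above both WT libraries at 22.6% and below them at 24.1%. DESeq2 gave each of the 5 an adjusted p between 7.48e-08 and 4.81e-07.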

How the data were processed

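ATAC-seq and H3K27ac reads had been counted by the authors over 1 merged peak set per table, and the deposited values are raw counts, whole numbers with a different total in each library. Tools listed without role or order, per the submitters' processing notes, are featureCounts of Subread, HOMER, STAR and DESeq2, and the build there is mm10. Duplicate removal, a shift of ATAC reads and the peak threshold are not given in those sources. Deposited totals were 2932270 to 8040451 counts in ATAC and 52759552 to 146450422 in PVT H3K27ac.

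Peaks were assigned to gene ends within 1000 bp, from RefSeq gene spans, with the strand taken from RefSeq starts (GRCm38.p6). Starts were known for 79.6% of genes, and no chromosome 18 start was used. CPM used TMM sizes. Genotypes were compared with edgeR 4.0.16 (R 4.3.3; quasi-likelihood, robust, edgeR's filter on low counts, 2 libraries per group, Benjamini-Hochberg over the table, adjusted p under 0.05), tested on simulated data. DESeq2 1.42.0, other scalings, filters, windows and libraries left out were alternatives. Overlap with H3K27ac needed 1 bp. Python with pandas 2.3.3 and scipy 1.17.1 did the rest. RNA and input libraries were not used here.

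Named genes were Polg, cell type markers, the 10 highest peaks by CPM and by CPM per kb without predicted loci, the 2 highest genes of the 5 strongest and 5 weakest classes, the 5 extremes of H3K27ac overlap and the 5 of smallest p in each genotype test. Further class members, among them the clock genes, were named after their values were seen. Some marker genes are not reported here. The members, the gene lists and the tests were chosen with earlier results of these data known.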

Additional observations from a re-analysis of the deposited data

How the results depend on the processing

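Over 12 alternatives, ATAC gene ends called between genotypes stayed at 0 with one exception. Taking the replicate number as a block called 1 of 13683, Camk2a (log2 1.44, edgeR adjusted p = 0.00101). In all, that fit called 2 of 87600 tested peaks (0.00228%). Over the other alternatives with all 4 libraries, the Camk2a adjusted p ran from 0.12 (DESeq2) to 0.99995 (edgeR, stricter filter). The labels give no shared source for a replicate number, and the replicate differences of the 2 genotypes correlated at -0.0517 over the tested peaks, most of them low. Among the 100 highest gene-end peaks, both replicate 1 libraries exceeded both replicate 2 libraries at 88, so whether the numbers pair the libraries is not settled. For H3K27ac at open gene ends, DESeq2 called 437 and every other alternative, the block included, called 0. The genotype difference in the share of ATAC counts was -0.305 percentage points also with the block. It ranged from -3.31 to 2.70 when 1 library was left out, reversing to 2.70 without WT replicate 1 and to 1.498 without Polg(D181A) replicate 1, and it was 0.0533 without peaks above 1000 CPM, an alternative chosen after seeing the data. The median level of gene-end peaks was 17.0 CPM with a window of 500 bp and 13.4 CPM with 2000 bp, which hold 11502 and 16791 peaks. Overlap with PVT H3K27ac was 67.3% and 62.8% with those windows. It was 57.3% when 50% of the ATAC peak had to be covered and 34.6% when only H3K27ac peaks of at least the median CPM per kb counted, against 31.7% and 20.9% for other autosomal peaks. The clock genes below 0 numbered 13 to 17 of 17 over the fits. Peaks below 10 counts in WT replicate 2 limit what can be said of the lowest gene ends.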

Other observations

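Open gene ends were spread unevenly over chromosomes. Chromosome 7 had the lowest share of protein-coding genes with an open end, 950 of 2030 or 46.8%, and chromosome 18 the highest, 354 of 511 or 69.3%. Chromosome 7 holds 417 olfactory and vomeronasal receptor genes in the table, and without such genes its share was 58.6%. Chromosome 2, with 287 of them, went from 58.6% to 69.6% when they were left out. Without these families the autosomes ranged from 58.0% (chromosome 14) to 69.6%.

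Zinc finger genes named Zfp, many of which encode repressors with a KRAB domain, were open at 300 of 388 (77.3%), and 237 of those 300 peaks met PVT H3K27ac (79.0%, against 68.4% of all genes with an open end). Their median level was 17.5 CPM, near the 18.9 CPM of all genes. Solute carriers matched the whole gene set in share, at 227 of 362 (62.7%). Developmental homeobox and related factors were open at 65 of 140 (46.4%), led by Foxo3 (43.2 CPM), and met H3K27ac at 28 of those 65.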
